A study of Homo sapiens with 9 samples.

Results

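The liver carcinoma line HepG2, of human origin and with much of the gene expression of a hepatocyte, was given the compound PQY23_1, and its transcriptome was set against that of HepG2 given the parent compound PQY09 at the same 50 µM. The fold changes compare 6 of the 9 libraries of the series, 3 per compound, over all 20157 genes, of 60612 listed, that passed a filter on low counts. The groups were HepG2 with 50 µM PQY23_1, HepG2 with 50 µM PQY09 and HepG2 with 0.1% DMSO, the solvent control. The 3 DMSO libraries were used to tell which compound had moved a gene, and they also entered the fit, where they help to set the spread behind each p-value. PQY09 is Butyrolactone I according to the series title, which names PQY23_1 as its derivative, calls both butenolides, and gives the search for their targets as the purpose. The sources used here give neither the structure of PQY23_1 nor the exposure time, and do not say whether the wells with a compound also held DMSO or whether separate cultures were behind the 3 libraries of each group. P-values therefore measure the spread between these libraries, which may be technical.

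Butyrolactone I, first isolated from a fungus, is used to inhibit cyclin dependent kinases, which drive the cell cycle and, in some members, transcription. Liver cells make cholesterol and fatty acids with enzymes whose genes are switched on by the SREBP transcription factors: SREBP2, from SREBF2, mainly serves cholesterol genes, and SREBP1, from SREBF1, mainly fatty acid genes. When sterols are scarce, the SREBP precursors leave the endoplasmic reticulum and are cleaved to their active form. Liver cells also secrete plasma proteins and apolipoproteins, and clear drugs with cytochromes P450 and glucuronosyltransferases.

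Library totals ran between 85050531 and 107538450 deposited counts, and 23192 to 24256 genes had a count above 0. Correlations of log2 CPM (a count scaled to its library total) over genes were 0.967 within PQY23_1, 0.971 within PQY09 and 0.964 to 0.967 between the compounds. Genes of the mitochondrial genome held 15.8% ± 1.10 of counts under PQY23_1, 13.3% ± 1.11 under PQY09 and 13.4% ± 0.742 under DMSO (SD, n = 3 each). The difference of 2.48 points between the compounds gave p = 0.2 in a two-sided exact permutation test, where 3 libraries against 3 cannot go below 0.1. None of 10 hepatocyte markers was at 0, and their summed level was 5077 to 5368 FPKM under PQY23_1, 5951 to 6241 under PQY09 and 5680 to 5911 under DMSO, without overlap between the compounds. Summed levels of 8 fibroblast markers and 6 endothelial markers stayed under 1 FPKM in every library, with COL1A2, KDR and TEK at 0. Of 8 leukocyte markers, CD3E and MS4A1 were at 0, and the summed level was almost all LYZ, lysozyme, at 462 to 562 FPKM under PQY23_1, 257 to 338 under PQY09 and 503 to 685 under DMSO. In bulk RNA a change in the share of cells that express a gene and a change in RNA per cell cannot be told apart.

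With 1 pair of compounds at 1 dose, 448 genes differed between PQY23_1 and PQY09 at an adjusted p below 0.05 in edgeR's quasi-likelihood test, which is 2.22% of those tested. Of these, 246 were higher under PQY23_1 (1.22%) and 202 lower (1%). The median size of a called change was 0.64 on the log2 scale, and 111 called genes moved at least 2-fold, 63 higher and 48 lower. For comparison, 514 genes (2.55%) were called for PQY23_1 against DMSO, 1.51% higher and 1.04% lower. For PQY09 against DMSO 574 (2.85%) were called, 1.78% higher and 1.07% lower. These comparisons share the DMSO libraries with each other and a compound's libraries with the main comparison. With only the 6 libraries of the compounds in the fit, 295 genes were called. Leaving out a single library moved the 448 calls by more than 1.5 times in 5 of 9 cases: 286 without PQY23_1 replicate 2, 268 without PQY23_1 replicate 3, 222 without PQY09 replicate 1, 240 without PQY09 replicate 2 and 275 without PQY09 replicate 3. In every one of the 9 such fits 182 of the 448 were called in their direction, 98 higher and 84 lower. In limma on TPM, over genes with at least 1 FPKM in at least 3 libraries, the median was -0.14 on the log2 scale. That fit called 149 genes higher and 794 lower. Limma on log2(FPKM + 1) over the same genes called 243 higher and 355 lower.

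The DMSO libraries divided the 448 genes by which compound was called against DMSO. Here and below, a compound moved a gene, or differed from DMSO, when that comparison was called. A comparison that was not called does not show that the compound left the gene unmoved. For TIMP1, counted under PQY23_1 alone, PQY09 against DMSO was at -0.41 on the log2 scale (adjusted p = 0.051, edgeR). PQY23_1 but not PQY09 was called against DMSO for 139 genes, of which 103 were higher and 36 lower under PQY23_1 than under PQY09. PQY09 but not PQY23_1 was called against DMSO for 153 genes, with 55 higher and 98 lower under PQY23_1. Another 20 genes moved the same way under both compounds but by different amounts, 7 moved in opposite ways, and for 129 neither comparison with DMSO was called. The DMSO mean lay between the compounds' means for 286 of the 448 genes, above both for 49 and below both for 113, and it lay nearer to PQY23_1 for 230 and nearer to PQY09 for 218. These counts depended on single libraries. The 139 became 69 without PQY23_1 replicate 3, 74, 81 and 87 without PQY09 replicate 1, 2 or 3, and 80, 49 and 69 without DMSO replicate 1, 2 or 3. The 153 became 98 and 95 without PQY23_1 replicate 2 or 3, 75, 82 and 93 without PQY09 replicate 1, 2 or 3, and 87 without DMSO replicate 2. The 20 lay between 5 and 12, the 7 between 2 and 9 and the 129 between 63 and 197 over the 9 fits.

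**Figure D1:**
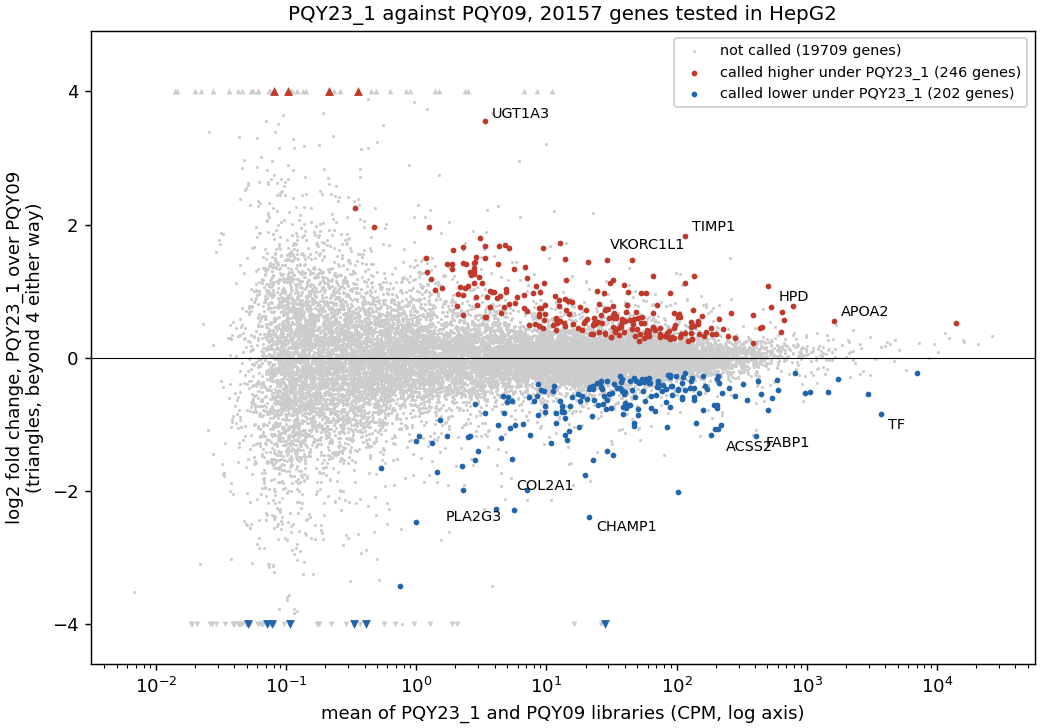
Fitted log2 fold change of PQY23_1 over PQY09 (vertical) against the mean CPM of the 6 libraries (log axis) for the 20157 genes tested. Red points are the 246 genes called higher and blue points the 202 called lower under PQY23_1; the 93 genes beyond 4 on the log2 scale, 11 of them called, are drawn as triangles at the edge, and TIMP1, VKORC1L1 and UGT1A3 stand out above and CHAMP1 and FABP1 below.

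The largest rises under PQY23_1 with at least 5 CPM were led by UGT1A3 and TIMP1. TIMP1, the tissue inhibitor of metalloproteinases, had 203, 164 and 176 CPM under PQY23_1, against 52.1, 47.1 and 54.6 CPM under PQY09 and 70.7, 65.4 and 68.7 CPM under DMSO. All PQY23_1 libraries stood above all others, and the log2 fold change between the compounds was 1.82 (SE 0.09, adjusted p = 6.86e-05, edgeR), which is 3.53-fold. VKORC1L1 (chromosome 7, 65873074 to 65959563), a paralog of the vitamin K epoxide reductase that recycles vitamin K, had 65.9, 67.7 and 66.0 CPM under PQY23_1, against 23.8, 24.7 and 23.5 CPM under PQY09 and 23.01, 25.2 and 25.3 CPM under DMSO. PQY09 and DMSO overlapped for this gene, and PQY23_1 was 2.77-fold above PQY09 (log2 1.47, SE 0.06, adjusted p = 3.86e-05). UGT1A3, a glucuronosyltransferase, had 5.21, 4.70 and 8.63 CPM under PQY23_1 against 0.574, 0.506 and 0.501 CPM under PQY09, a log2 fold change of 3.55 (SE 0.30, adjusted p = 0.00084). UGT1A3 shares its last exons with UGT1A6 and UGT1A1, so its counts cannot be fully told from theirs.

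Other rises were in VNN1, the pantetheinase that frees pantothenate, with 4.86, 5.48 and 4.99 CPM under PQY23_1 against 1.43, 1.89 and 1.45 CPM under PQY09, and in MEP1A, the alpha subunit of the metalloprotease meprin, with 8.03, 7.29 and 8.16 CPM against 2.47, 2.89 and 2.16 CPM. The glycosyltransferase gene B3GNT3 rose by 1.64, the coronin gene CORO2B by 1.69, and S100A3, which overlaps S100A4, by 1.72 on the log2 scale. These genes, with PTPRN2 at 1.44, were called for PQY23_1 against DMSO and not for PQY09. A different position of DMSO was found for TNS4, tensin 4 of integrin adhesions, which had 38.0, 48.5 and 42.1 CPM under PQY23_1, 14.1, 16.9 and 15.7 CPM under PQY09 and 42.1, 40.5 and 35.6 CPM under DMSO. PQY23_1 and DMSO overlapped and PQY09 stood below both, with a log2 fold change between the compounds of 1.46 (SE 0.11, adjusted p = 0.00060). GGT5 at 1.498, UGT2B11 at 1.67, the BMP antagonist NBL1 at 1.48 and the kinase inhibitor gene CDKN2B at 1.36 were likewise called for PQY09 against DMSO alone, and ASB4 at 1.41 for neither. UGT2B11 has close paralogs, and NBL1 and CDKN2B overlap MICOS10 and CDKN2B-AS1, with no strand setting given.

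The largest falls under PQY23_1 were mostly genes that stood high under PQY09. FABP1, the fatty acid binding protein of liver, had 272, 238 and 246 CPM under PQY23_1, against 576, 580 and 551 CPM under PQY09 and 280, 284 and 305 CPM under DMSO (log2 -1.18, SE 0.06, adjusted p = 0.00010). PQY09 stood apart for FABP1, and PQY23_1 was not called against DMSO. SLCO4C1, an organic anion transporter, had 16.5, 17.9 and 17.9 CPM under PQY23_1 against 46.3, 51.9 and 46.1 CPM under PQY09, with DMSO at 19.2, 19.4 and 19.2 CPM (log2 -1.46, SE 0.07, adjusted p = 6.86e-05).

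PLA2G3, a secreted phospholipase, fell by 2.29, the cytokine receptor gene IL21R by 2.27, PCOLCE, an enhancer of procollagen processing, by 1.53, and ITIH1, a heavy chain of the inter-alpha-trypsin inhibitor, by 1.52 on the log2 scale. For these, as for HIVEP1 at -1.28, CYP3A7 at -1.23 and the readthrough PMF1-BGLAP at -1.16, PQY09 alone differed from DMSO. CHAMP1, a protein of chromosome alignment in mitosis, was instead moved by PQY23_1 alone: it had 5.76, 8.82 and 5.93 CPM under PQY23_1, against 38.6, 39.3 and 29.2 CPM under PQY09 and 36.8, 28.1 and 15.8 CPM under DMSO. There PQY23_1 stood below the other groups, which overlapped (log2 -2.39 between the compounds, SE 0.31, adjusted p = 0.0062). TNNC2, skeletal troponin C, fell by 1.20 with neither compound called against DMSO, and it lost its call in 7 of the 9 fits with a library left out, PMF1-BGLAP in 8.

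**Figure D2:**
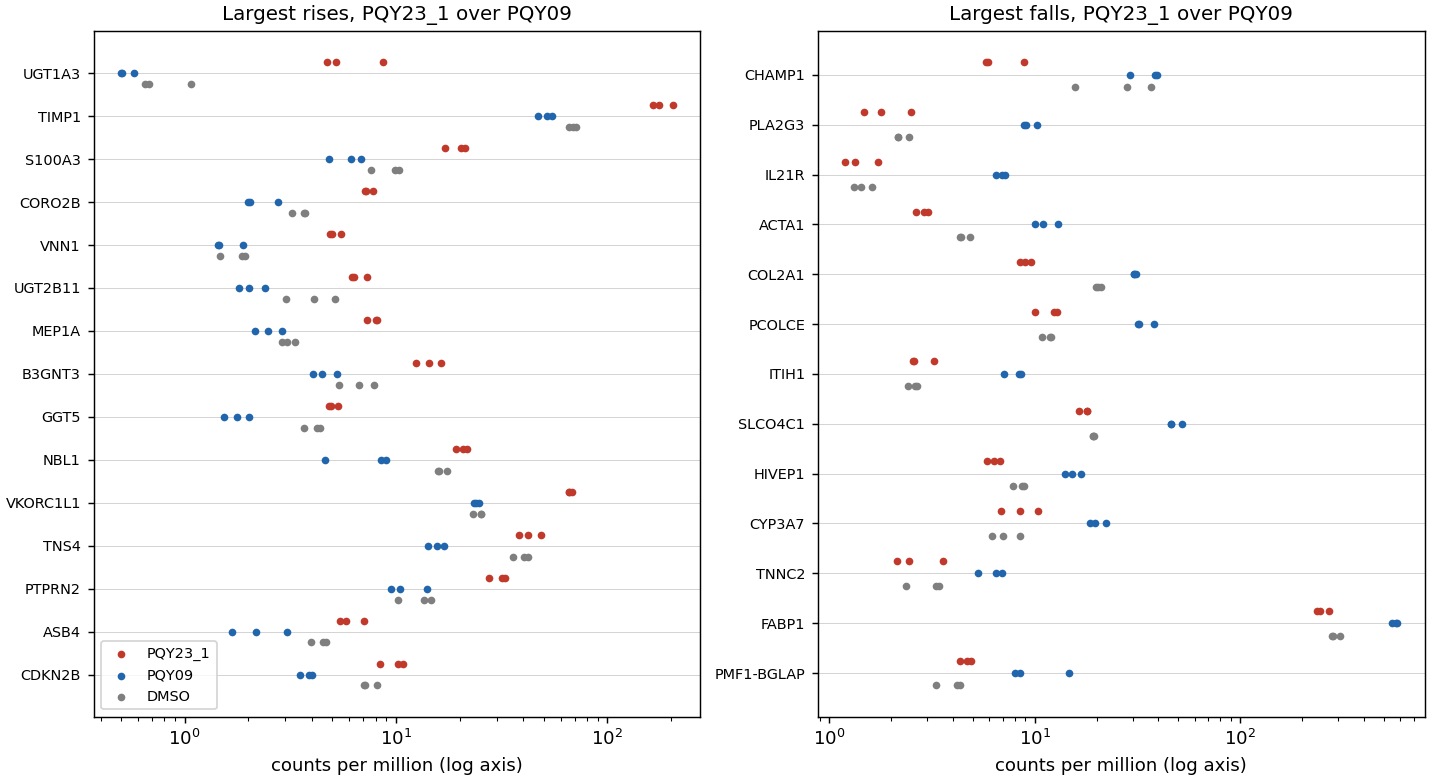
CPM of each library (log axis) for the largest rises (left, 15 genes) and falls (right, 13 genes) of PQY23_1 over PQY09 among called genes whose libraries do not overlap and whose higher group averages at least 5 CPM, without unnamed and noncoding symbols and genes not reported here, with PQY23_1 in red, PQY09 in blue and DMSO in grey. For TIMP1 and VKORC1L1 the PQY23_1 points stand apart, and for FABP1, SLCO4C1 and IL21R the PQY09 points do.

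Cholesterol synthesis was the list with the most members called. All 21 enzymes of the list were tested, 13 were called lower under PQY23_1 than under PQY09 and none higher, a share of 61.9% against 2.22% of all genes. All 21 fitted log2 fold changes were below 0, between -1.16 and -0.19, with a median of -0.66 against -0.009 over all genes tested, and the 3 and 3 libraries did not overlap for 18 of the 21, as they did not for 22% of all genes. The list's median was 0.17 for PQY23_1 against DMSO, with 3 members called higher, and 0.82 for PQY09 against DMSO, with 16 called higher. The members are given in the order of the pathway. Counts of MVK and STARD4 are uncertain where these genes overlap MMAB and STARD4-AS1, since the strand setting of the counting is not given.

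In the mevalonate arm, ACAT2, which joins acetyl-CoA units and overlaps TCP1, had 399, 350 and 360 CPM under PQY23_1, against 631, 635 and 645 CPM under PQY09 and 346, 346 and 355 CPM under DMSO. PQY23_1 and DMSO overlapped for ACAT2 and PQY09 stood above both, with a log2 fold change between the compounds of -0.79 (adjusted p = 0.00050). The mevalonate kinase MVK fell by 0.57, the decarboxylase MVD by 0.78 and FDPS, which makes farnesyl diphosphate, by 0.45 on the log2 scale. HMGCS1, an early synthase of the arm, had 294, 279 and 145 CPM under PQY23_1 and 519, 599 and 489 CPM under PQY09; its log2 fold change of -1.16 (95% interval -1.77 to -0.56) did not pass the test at an adjusted p of 0.067. IDI1 had 151, 52.5 and 181 CPM under PQY23_1 against 198, 207 and 256 CPM under PQY09 (log2 -0.78, adjusted p = 0.38). PMVK and GGPS1 at -0.26 and -0.19 did not pass either.

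From squalene onward, SQLE, the epoxidase, had 279, 264 and 284 CPM under PQY23_1, against 429, 427 and 424 CPM under PQY09 and 256, 248 and 255 CPM under DMSO (log2 -0.63, SE 0.05, adjusted p = 0.00052). LSS (chromosome 21), which closes the sterol rings, had 163, 148 and 147 CPM under PQY23_1, against 241, 271 and 259 CPM under PQY09 and 125, 124 and 124 CPM under DMSO. For LSS the 3 groups were all apart, with PQY23_1 between DMSO and PQY09, and the log2 fold change between the compounds was -0.75 (SE 0.06, adjusted p = 0.00084). The demethylase CYP51A1 fell by 0.71, the reductases TM7SF2 and DHCR7 by 1.02 and 0.71, MSMO1 by 0.53, NSDHL by 0.48 and HSD17B7 by 0.54 on the log2 scale. FDFT1 at -0.32, EBP at -0.41 and SC5D at -0.83 did not pass, and SC5D ranged over 42.6 to 93.0 CPM under PQY23_1 and 61.7 to 176 CPM under PQY09. Of the 13 calls, FDPS and NSDHL were lost without PQY09 replicate 1, HSD17B7 in 4 and MSMO1 in 5 of the 9 fits with a library left out, and the other 9 in none. Between 9 and 17 members were called lower across the other settings tried, and the median stayed between -0.79 and -0.60.

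The genes that control the pathway moved less evenly. Of 15 genes of SREBP control and sterol uptake, 3 were called lower and none higher, with a median of -0.14. SREBF2 (chromosome 22), the gene of SREBP2, had 136, 147 and 139 CPM under PQY23_1, against 191, 196 and 179 CPM under PQY09 and 164, 166 and 159 CPM under DMSO. The compounds stood on either side of DMSO, but only their difference from each other was called (log2 -0.42, SE 0.05, adjusted p = 0.0061); SREBF2 overlaps SREBF2-AS1. STARD4, a sterol carrier, had 44.7, 46.4 and 51.2 CPM under PQY23_1, against 80.9, 78.5 and 79.6 CPM under PQY09 (log2 -0.75, SE 0.09, adjusted p = 0.0042). SREBF1, the gene of SREBP1, had 50.6, 57.4 and 47.4 CPM against 49.8, 52.3 and 48.5 CPM, and its interval of -0.13 to 0.22 lies within 1.5-fold. INSIG1, which holds SREBP back in the endoplasmic reticulum, was counted at under 1 CPM in every library; whether its reads were assigned fully by the authors' processing is not known, so no level or change is read from it.

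The promoters of 3 of these genes are given because SREBP acts there, as background, together with the factor NF-Y. The windows are the 250 bases before the annotated start (RefSeq, GRCh38.p14), written 5′ to 3′ on the gene's strand, with capitals for the CCAAT box (CCAAT on either strand, the motif of NF-Y) and, in SREBF2, also for the core of the sterol regulatory element (TCACNCCA on either strand). MVD and LSS are shown as enzymes called before and after squalene, and SREBF2 as the regulator; they lie on chr16:88663092-88663341 (minus strand), chr21:46228775-46229024 (minus strand) and chr22:41832855-41833104 (plus strand).
MVD: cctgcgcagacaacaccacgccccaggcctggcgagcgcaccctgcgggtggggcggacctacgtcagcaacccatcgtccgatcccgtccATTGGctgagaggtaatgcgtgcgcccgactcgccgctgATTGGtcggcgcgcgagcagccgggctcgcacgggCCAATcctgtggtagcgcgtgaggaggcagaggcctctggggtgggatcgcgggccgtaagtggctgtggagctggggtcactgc
LSS: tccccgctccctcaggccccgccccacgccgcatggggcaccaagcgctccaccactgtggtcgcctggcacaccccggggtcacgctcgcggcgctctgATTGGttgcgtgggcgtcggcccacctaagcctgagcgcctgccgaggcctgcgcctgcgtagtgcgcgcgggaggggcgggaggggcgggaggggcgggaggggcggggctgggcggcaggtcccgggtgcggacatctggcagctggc
SREBF2: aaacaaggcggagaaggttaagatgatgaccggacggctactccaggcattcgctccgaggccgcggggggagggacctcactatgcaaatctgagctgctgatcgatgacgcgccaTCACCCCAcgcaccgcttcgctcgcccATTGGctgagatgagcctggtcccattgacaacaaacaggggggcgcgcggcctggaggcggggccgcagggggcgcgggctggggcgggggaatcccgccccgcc
LSS holds 1 CCAAT box, MVD holds 3, and SREBF2 holds 1 together with 1 sterol regulatory core. In windows of 300 bases that run 50 bases past the start, 16 of the 21 cholesterol enzymes had an entry and 12 of them held a CCAAT box (75%), against 35.7% of 27305 genes with an entry. The sterol core was found for 2 of the 16, MVK and MSMO1, against 3.93% of all genes. For the fatty acid list below, 7 of 19 held a CCAAT box (36.8%). The motifs were chosen after the gene values were seen; a match describes letters in a window and does not show binding.

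Fatty acid synthesis moved in the same direction at fewer members. Of 20 genes tested, 7 were called lower under PQY23_1 and 1 higher, with a median log2 fold change of -0.24. The list's median was 0.09 for PQY23_1 against DMSO and 0.40 for PQY09 against DMSO. Over all genes tested, 1% were called lower and 1.22% higher, with a median of -0.009. Every list below is to be read beside these values. Where a list holds a single call, as 1 of 20 liver transcription factors (5%), the call is not read as a result about the list. ACSS2, the acetate-activating synthetase, whose gene overlaps GGT7, had 123, 127 and 131 CPM under PQY23_1, against 261, 275 and 263 CPM under PQY09 and 86.3, 81.3 and 88.6 CPM under DMSO. The 3 groups did not overlap, and the log2 fold change between the compounds was -1.07 (SE 0.06, adjusted p = 6.86e-05). The desaturases followed: FADS2 had 135, 155 and 146 CPM under PQY23_1 against 289, 306 and 284 CPM under PQY09, FADS1 fell by 0.57 and SCD by 0.54 on the log2 scale. FADS1 and FADS2 overlap each other. ACLY, which supplies cytosolic acetyl-CoA, fell by 0.60, the elongase ELOVL6 by 0.74 and the synthase FASN by 0.53, and FASN lost its call in 8 of the 9 fits with a library left out. For 6 of the 7, all but ACSS2, PQY09 alone differed from DMSO. ACSL5, an acyl-CoA synthetase, rose by 0.31 and lost its call in 5 of those fits. ACACA, the carboxylase, had a log2 fold change of -0.33 (adjusted p = 0.12).

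**Figure D3:**
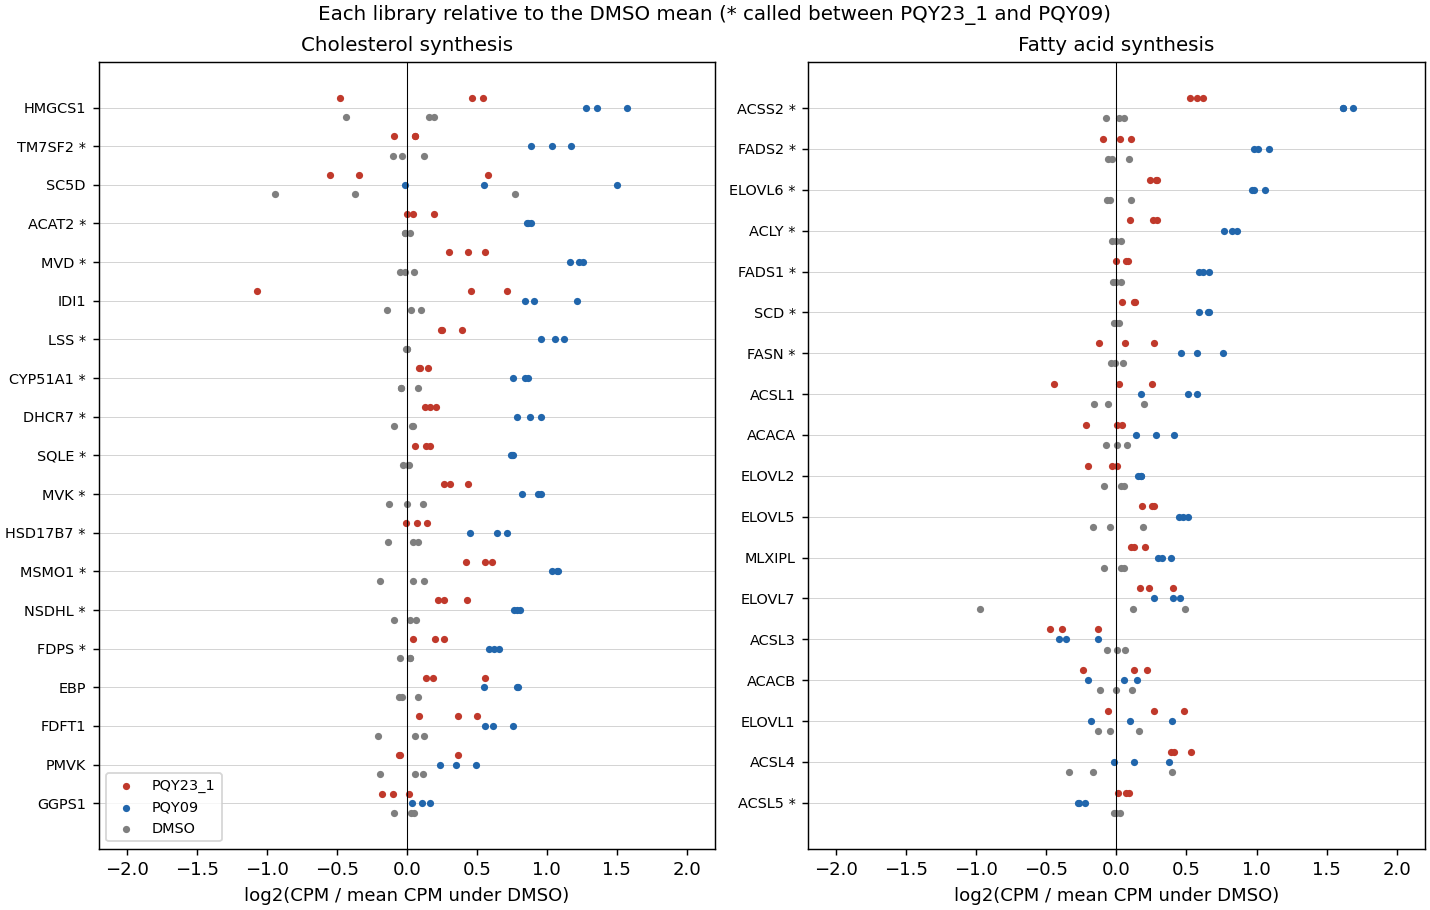
CPM of each library relative to the DMSO mean (log2) for 19 cholesterol synthesis genes (left) and the 18 fatty acid synthesis genes with a mean of at least 1 CPM (right; ME1 and THRSP are below it), ordered by the change between the compounds, with PQY23_1 in red, PQY09 in blue and DMSO in grey. For most starred genes, those called between the compounds, the PQY09 points lie to the right and the PQY23_1 points nearer to 0; LSS, MVD, MSMO1 and ACSS2 were called against DMSO under both.

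Other lipid lists held few calls. Of 13 genes of LXR and sterol efflux, MYLIP, a ubiquitin ligase, and SMPDL3A were called higher at 0.49 and 0.51. The list's median of 0.30 became 0.004 on the TPM scale, with 1 member called higher. MYLIP lost its call in all 9 fits with a library left out and SMPDL3A in 7. ABCA1, the efflux pump, was at 0.00 (adjusted p = 0.99). Of 21 lipid droplet and triglyceride genes, CIDEC, a droplet coat protein, rose to 10.4, 7.87 and 8.19 CPM under PQY23_1, against 3.96, 5.04 and 4.81 CPM under PQY09. The acyltransferase GPAM fell by 0.47, with PQY23_1 alone called against DMSO, and the lipase PNPLA3 by 0.58, with PQY09 alone. CIDEC lost its call in 5 and PNPLA3 in 4 of the fits with a library left out. Of 19 PPARA and fatty acid oxidation genes, FABP1 and the thioesterases ACOT1 and ACOT2 were lower and VNN1 higher under PQY23_1. ACOT1 had 40.0, 35.7 and 39.1 CPM under PQY23_1 against 57.1, 56.5 and 59.6 CPM under PQY09, but ACOT1 and ACOT2 are near-identical copies whose counts are uncertain, and ACOT2 lost its call in 7 fits.

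Immediate early genes, which rise within minutes of a stimulus, and the AP-1 subunits among them were lower under PQY23_1 where they were called. JUN had 100.4, 108.1 and 132.8 CPM under PQY23_1, against 245, 239 and 275 CPM under PQY09 and 49.7, 44.9 and 47.7 CPM under DMSO. The 3 groups did not overlap, both compounds were called above DMSO, and the log2 fold change between them was -1.15 (SE 0.11, adjusted p = 0.0012). EGR1 had 46.5, 51.7 and 68.5 CPM under PQY23_1, against 111, 103 and 128 CPM under PQY09 and 35.0, 25.1 and 21.7 CPM under DMSO (log2 -1.04, SE 0.20, adjusted p = 0.035). In all, 2 of 12 AP-1 genes, JUN and ATF3, and 5 of 29 immediate early genes were lower and none higher, with medians of -0.30 and -0.18. The 5 were EGR1, the matricellular genes CCN1 at -0.74 and CCN2 at -0.59, BTG2 at -0.63 and ZFP36L2 at -0.27. FOS, the partner of JUN, had 18.3, 18.2 and 24.9 CPM under PQY23_1 and 22.4, 22.99 and 29.3 CPM under PQY09, with an interval of -1.02 to 0.45. DUSP1, a phosphatase that curbs MAP kinases, was at -0.44 (adjusted p = 0.20). JUN, CCN2 and BTG2 were called in all 9 fits with a library left out; the call was lost in 6 for EGR1, in 8 for ATF3 and CCN1 and in 9 for ZFP36L2.

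Genes that feed back on the ERK pathway moved the other way in part. Of 16, DUSP5, a phosphatase of ERK, and SPRED3, an inhibitor of RAS and RAF signalling, were called higher and none lower. DUSP5 had 12.6, 10.7 and 13.4 CPM under PQY23_1, against 6.75, 7.63 and 6.95 CPM under PQY09 and 6.48, 6.78 and 8.43 CPM under DMSO (log2 0.79, SE 0.14, adjusted p = 0.022), and lost its call in 5 of the 9 fits. SPRED3 had 2.66, 2.36 and 3.19 CPM against 1.17, 1.02 and 0.907 CPM under PQY09 (log2 1.41, SE 0.18, adjusted p = 0.0057). The list's median of 0.14 became -0.02 on the TPM scale. Of 22 actin and SRF genes, SRF itself fell by 0.29 and the myosin light chain gene MYL9 by 0.50, and they lost their calls in 8 and 6 of the fits.

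Matrix and adhesion genes included the most opposed changes. Of 30 tested, 5 were called higher and 2 lower, with a median of -0.02. COL2A1 (chromosome 12, 47972967 to 48004554), the chain of type II collagen, had 8.50, 8.94 and 9.63 CPM under PQY23_1, against 30.4, 31.1 and 30.3 CPM under PQY09 and 19.9, 20.9 and 20.2 CPM under DMSO. PQY23_1 was below DMSO and PQY09 above it, without overlap, and the log2 fold change between them was -1.76 (SE 0.07, adjusted p = 3.86e-05). LGALS1, galectin 1, had 163, 154 and 160 CPM under PQY23_1, against 71.3, 72.3 and 75.1 CPM under PQY09 and 88.9, 89.4 and 86.6 CPM under DMSO (log2 1.12, SE 0.05, adjusted p = 4.05e-05). TGM2, the crosslinking transglutaminase, had 73.6, 80.2 and 76.4 CPM under PQY23_1, against 39.6, 39.2 and 38.8 CPM under PQY09 and 59.9, 54.1 and 53.6 CPM under DMSO. LGALS3, galectin 3, rose by 0.98, TNS4 and TIMP1 are given above, and FERMT1, a kindlin of integrin activation, fell by 0.98 with its call lost in 8 of the 9 fits. Outside the list, ACTA1, skeletal muscle actin, and IGFBP6, a binding protein of insulin-like growth factor 2, also moved to opposite sides of DMSO. ACTA1 had 3.005, 2.88 and 2.64 CPM under PQY23_1, against 10.9, 9.98 and 12.99 CPM under PQY09 and 4.31, 4.85 and 4.38 CPM under DMSO. IGFBP6 rose by 1.34 on the log2 scale over PQY09.

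Genes of amino acid supply were lower under PQY23_1 where called. PHGDH, which opens serine synthesis, had 91.9, 83.6 and 88.8 CPM under PQY23_1, against 134, 129 and 132 CPM under PQY09 and 148, 138 and 144 CPM under DMSO (log2 -0.58, SE 0.06, adjusted p = 0.0013). SLC7A5, the light chain of the LAT1 transporter, had 528, 545 and 507 CPM against 662, 663 and 670 CPM under PQY09 and 743, 726 and 708 CPM under DMSO (log2 -0.34, SE 0.05, adjusted p = 0.0078). For both genes PQY23_1 alone was called against DMSO, as for SLC6A9, a glycine transporter, at -0.72, SLC3A2, the partner of SLC7A5, at -0.27, TRIB3 at -0.45 and CEBPG at -0.35. In all, 3 of 21 amino acid transporters, 3 of 24 ATF4 response genes and 2 of 17 serine and folate genes were lower and none higher, with medians of -0.20, -0.15 and -0.11. CTH, which makes cysteine, had 7.37, 7.54 and 7.40 CPM under PQY23_1, against 9.43, 9.91 and 9.88 CPM under PQY09 and 16.6, 17.6 and 18.5 CPM under DMSO, lower under both compounds. CTH lost its call in all 9 fits with a library left out, SLC3A2 in 8 and TRIB3 and CEBPG in 5 each, and PHGDH, SLC7A5 and SLC6A9 in none. SLC7A11, the cystine transporter, was at -0.20 (interval -0.43 to 0.04) and ASNS, asparagine synthetase, at -0.45 (adjusted p = 0.20). ALDH1L1, of folate metabolism, fell by 0.48 and differed from DMSO under PQY09 alone. Of 20 aminoacyl-tRNA synthetase genes none was called by edgeR, with 5 at an unadjusted p under 0.05, and none by DESeq2 or limma.

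Among enzymes that break amino acids down, the calls were in the other direction. Of 22 genes of this list and the urea cycle, 4 were called higher and none lower, with a median of -0.03. HPD, of tyrosine breakdown, had 726, 637 and 660 CPM under PQY23_1, against 384, 399 and 407 CPM under PQY09 and 360, 340 and 346 CPM under DMSO (log2 0.77, SE 0.06, adjusted p = 0.00060). FAH, the last enzyme of tyrosine breakdown, rose by 0.44, KYNU, of tryptophan breakdown, by 0.50 and ASL, of the urea cycle, by 0.31 on the log2 scale. All 4 were called for PQY23_1 against DMSO and not for PQY09. FAH and KYNU lost their calls in 3 and ASL in 9 of the 9 fits with a library left out, and HPD in none.

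Secreted liver proteins were split. TF, transferrin, had 2686, 2620 and 2714 CPM under PQY23_1, against 4916, 4807 and 4733 CPM under PQY09 and 3563, 3352 and 3710 CPM under DMSO. The compounds stood on opposite sides of DMSO, with a log2 fold change of -0.85 between them (SE 0.05, adjusted p = 0.00010). ALB, albumin, had 6822, 6224 and 6418 CPM against 7640, 7570 and 7596 CPM under PQY09 and 6555, 6592 and 6594 CPM under DMSO (log2 -0.23), and lost its call in 8 of the 9 fits. TF, ALB and APOA1 also belong to the hepatocyte markers whose summed level is given above; the part of that level in these results was not tested. Of 17 plasma proteins 2 were lower, TF and ALB, with a median of -0.18, and AFP, alpha-fetoprotein, was at -0.05 (interval -0.16 to 0.05). Of 13 apolipoproteins 3 were higher and 2 lower. APOA2 had 2128, 1823 and 1805 CPM under PQY23_1 against 1244, 1308 and 1384 CPM under PQY09 (log2 0.55), whereas APOC3 had 42.6, 36.9 and 32.6 CPM against 62.5, 64.2 and 64.1 CPM (log2 -0.77) and APOA1 fell by 0.51. APOC2 at 0.52 and APOM at 0.39 lost their calls in 5 and 8 of the fits, APOA1 in 3.

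Of 19 acute phase and IL6 genes, the receptor gene IL6R and ITIH3 rose by 0.59 and 0.36 and FGA, a fibrinogen chain, fell by 0.32. Of 17 iron genes TF and HPX, the heme carrier hemopexin, were lower; HAMP, the iron hormone hepcidin, had 50.5, 46.2 and 52.7 CPM under PQY23_1, 58.9, 59.5 and 74.5 CPM under PQY09 and 20.1, 17.9 and 19.4 CPM under DMSO, and its difference between the compounds of -0.37 did not pass (adjusted p = 0.13). Of 16 TGF-beta and BMP genes, SMAD7 and SMAD9, inhibitory and BMP-activated signal transducers, fell by 0.53 and 0.43. Of 14 NFKB and chemokine genes ICAM1 was called higher at 0.29, with DMSO above both compounds. Of 20 liver transcription factors only ONECUT1 was called, at -0.99. Most of these calls were lost in several of the 9 fits with a library left out: ITIH3 in 4, FGA in 1, HPX in 8, SMAD7 in 8, SMAD9 in 9, ICAM1 in 7 and ONECUT1 in 6, and IL6R in none.

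Of 13 PXR and CAR genes, 1 was called higher and 1 lower. CYP3A7, the fetal CYP3A, had 10.3, 6.82 and 8.51 CPM under PQY23_1, against 18.5, 19.5 and 22.2 CPM under PQY09 and 6.19, 6.97 and 8.43 CPM under DMSO (log2 -1.23, SE 0.17, adjusted p = 0.0086), though its close paralogs make the counts uncertain. Its neighbour CYP3A5 had 22.7, 24.9 and 25.1 CPM under PQY23_1, against 26.9, 27.2 and 31.0 CPM under PQY09 and 13.1, 13.2 and 13.1 CPM under DMSO, and its difference of -0.23 between the compounds did not pass (adjusted p = 0.22). NR1I2, the receptor PXR, rose by 0.45 and lost its call in 6 of the 9 fits. Of 29 NRF2 targets, AKR1B10, an aldo-keto reductase, had 842, 744 and 819 CPM under PQY23_1 against 556, 508 and 556 CPM under PQY09 (log2 0.57, SE 0.07, adjusted p = 0.0047), and HMOX1, heme oxygenase, had 102, 97.6 and 93.6 CPM against 134, 130 and 146 CPM (log2 -0.49, SE 0.06, adjusted p = 0.0064). Of 8 metallothioneins, whose sequences are alike, MT2A had 216, 185 and 176 CPM under PQY23_1, against 80.2, 72.9 and 93.7 CPM under PQY09 and 128, 117 and 113 CPM under DMSO, and MT1F fell by 0.73. GSTA2 was at -0.27 (adjusted p = 0.11), and of 21 glutathione transferases and sulfotransferases none was called by edgeR, 6 had an unadjusted p under 0.05, and DESeq2 called 4 and limma 1.

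Genes of cyclin dependent kinases, the family that Butyrolactone I is used to inhibit, and of cyclins gave no call between the compounds at the RNA level. The list covers the family, whether or not Butyrolactone I inhibits a given member. Of 32 genes none was called by edgeR, with a median of -0.01, 6 at an unadjusted p under 0.05 and no call by DESeq2 or limma. CDK1 had 62.8, 62.0 and 57.7 CPM under PQY23_1 and 67.4, 61.2 and 58.3 CPM under PQY09, with an interval of -0.22 to 0.15, and CCNB1, its cyclin, had an interval of 0.01 to 0.27. CDK2 had an interval of -0.22 to 0.35, so that all 3 lie within 1.5-fold. Of 28 genes of G2 and mitosis none was called by any of the 3 tools and none had an unadjusted p under 0.05. Of 34 of S phase and replication none was called by edgeR, 8 had an unadjusted p under 0.05, all lower, and DESeq2 and limma called 2 each. Of 7 CDK inhibitors, CDKN2B, which blocks CDK4 and CDK6, had 10.2, 8.40 and 10.7 CPM under PQY23_1, against 3.51, 3.88 and 4.02 CPM under PQY09 and 7.10, 8.10 and 7.05 CPM under DMSO (log2 1.36, SE 0.13, adjusted p = 0.0013). CDKN2D fell by 0.65 and lost its call in 8 of the 9 fits. CDKN1A, p21, ranged over 25.9 to 104 CPM under PQY23_1, 33.2 to 123 CPM under PQY09 and 20.8 to 91.2 CPM under DMSO, with an interval of -1.82 to 1.39, so that a difference of 2-fold was not detectable here. Among 22 p53 targets BTG2 alone was called.

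Sugar and stress genes gave few calls. Of 35 hypoxia and glycolysis genes, PFKP, the platelet phosphofructokinase, had 16.4, 15.7 and 14.0 CPM under PQY23_1 against 7.42, 7.65 and 9.14 CPM under PQY09 (log2 0.93, SE 0.11, adjusted p = 0.0041). The pyruvate kinase gene PKM rose by 0.39 and lost its call in 7 of the 9 fits, and the glucose transporter SLC2A3 had 66.3, 77.5 and 65.7 CPM under PQY23_1, 103, 94.9 and 91.3 CPM under PQY09 and 152, 173 and 162 CPM under DMSO, with its call lost in 6. TXNIP, which limits glucose uptake, was at 0.31 and IGFBP1 at 0.59, neither past the test (adjusted p = 0.068 and 0.073). HSPA1A, a heat shock protein with a near-identical copy, fell by 0.32 among 20 genes, and was called in 1 of the 9 fits with a library left out. Of 24 lysosome and autophagy genes, CTSB, cathepsin B, had 695, 688 and 656 CPM under PQY23_1, 363, 227 and 379 CPM under PQY09 and 539, 379 and 516 CPM under DMSO, and NEU1, a sialidase, fell by 0.40; CTSB lost its call in 5 and NEU1 in 3 fits. HLA-B, which has close paralogs, fell by 0.81 among 21 interferon genes and lost its call in 3 fits. VKORC1L1 and FGA were the 2 calls among 17 genes of vitamin K and clotting.

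All 13 protein genes of the mitochondrial genome had log2 fold changes above 0, with a median of 0.24, but none was called by edgeR, 7 had an unadjusted p under 0.05, and DESeq2 called 1 and limma none. The share of mitochondrial counts given above moved with them, and its part in this was not tested. Outside the protein genes, the mitochondrial ribosomal RNA gene MT-RNR2 was called higher, at 0.53 (adjusted p = 0.0042, edgeR). Its call was kept in 9 of 9 fits with a library left out, and PQY09 alone was called against DMSO, lower. Of 31 nuclear genes of oxidative phosphorylation and 40 ribosomal protein genes none was called by edgeR; 28 and 36 of them were above 0, with medians of 0.12 and 0.13 that became -0.04 and -0.03 on the TPM scale. Unadjusted p-values under 0.05 numbered 4 and 7, DESeq2 called 1 and 2, and limma none. Over the 12 lists without a call by edgeR, 61 of 285 members had an unadjusted p under 0.05, and DESeq2 called 18 and limma 3. Among all 20157 genes, 2968 had an unadjusted p under 0.05 in edgeR. DESeq2 called 1285 genes in all, and limma on log2(FPKM + 1), after its own filter, called 598. These counts over lists are to be read beside those over all genes and are not taken as hidden differences.

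**Figure D4:**
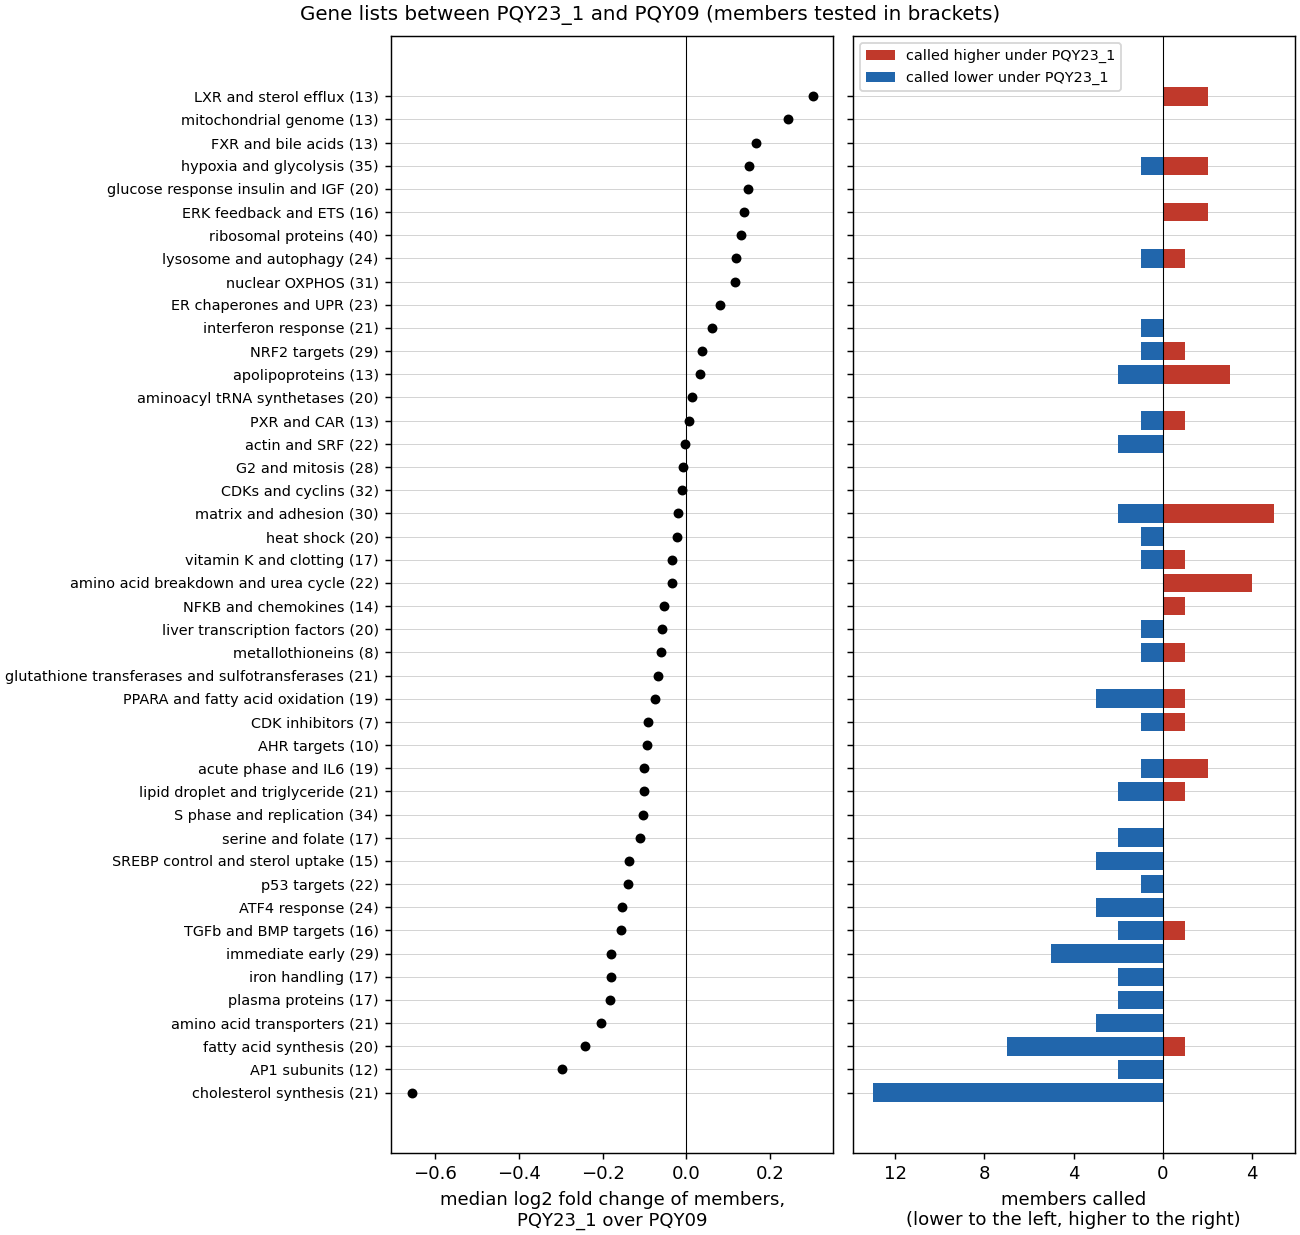
Median log2 fold change of the tested members, PQY23_1 over PQY09 (left), and number of members called lower (to the left, blue) or higher (to the right, red) for each gene list, with the number of members tested in brackets. Cholesterol synthesis lies lowest with a median of -0.66 and 13 of 21 called lower, and fatty acid synthesis has the next most members called lower, 7 of 20.

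How far the compounds acted alike was read from the 95% interval of each fold change. The interval lay within 1.5-fold for 8721 of all genes tested (43.3%) and within 2-fold for 12399 (61.5%). Among the 10848 genes with a mean of at least 5 CPM the shares were 74.3% and 91.2%, so that most intervals that ran wider belonged to genes with few counts. Of 173 genes called the same way against DMSO under both compounds, 143 (82.7%) lay within 1.5-fold and 166 (96.0%) within 2-fold. Picking genes by calls in the same direction against shared DMSO libraries favours narrow intervals and similar fold changes. The shares of these 173 therefore follow in part from the selection and do not measure how alike the compounds are. Of the same 173, 20 were called between the compounds and 153 were not, and the median interval of those 153 reached 0.18 to either side on the log2 scale. Of 35 genes from a panel of the pathways described here, 16 were called and 19 were not. PLIN2, a lipid droplet coat, had 233, 227 and 214 CPM under PQY23_1, 253, 235 and 235 CPM under PQY09 and 341, 355 and 353 CPM under DMSO, and its interval of -0.23 to 0.02 is among the narrowest. ATF4 ranged over 61.0 to 139 CPM under PQY23_1 and 68.9 to 87.5 CPM under PQY09, and its interval of -0.16 to 1.03 reaches past 2-fold.

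**Figure D5:**
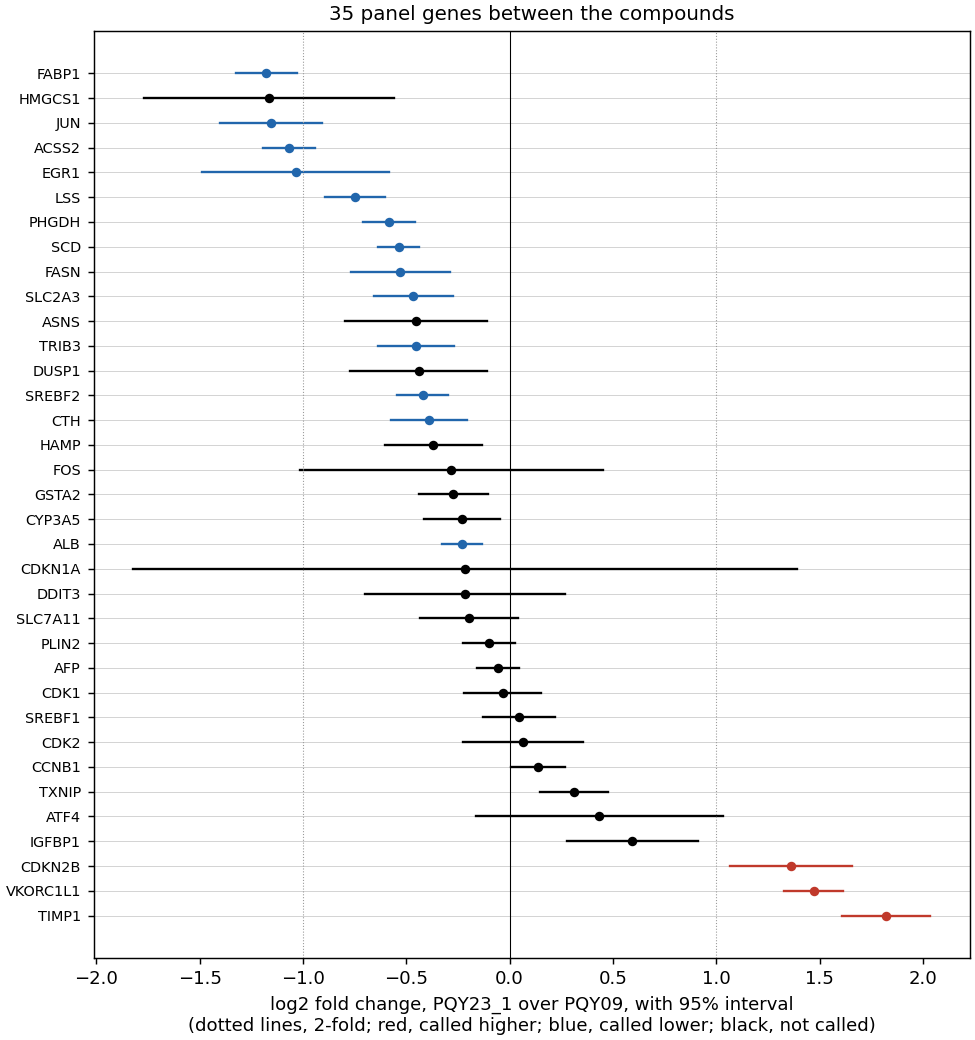
Log2 fold change of PQY23_1 over PQY09 (points) with its 95% interval (lines) for 35 panel genes, in red where called higher, blue where called lower and black where not called; dotted lines mark 2-fold. CDK1, SREBF1, AFP and PLIN2 have short intervals around 0, while CDKN1A, FOS and HMGCS1 have wide ones.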

How the data were processed

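Total RNA of HepG2 was extracted with TRIzol and sequenced on an Illumina instrument, per the labels' protocols. The submitters' processing notes name cutadapt 1.9, HISAT2 2.0.4, StringTie 1.3.4d, edgeR, DESeq2 and the build hg38. The authors deposited estimated counts and FPKM per gene and library. The estimated counts were rounded to whole numbers; they pile up at a count of 4 (10696 values, against 4024 at 3 and 2277 at 5), so a fragment may not weigh 1 count, and counts divided by 4 were tried as an alternative. How counting treated strand is not given in the sources used here.

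Genes were filtered with filterByExpr (minimum count 10, minimum total 15), scaled by TMM (factors 0.977 to 1.026) and fitted over all 9 libraries with 1 mean per group in edgeR 4.0.16 (R 4.3.3; quasi-likelihood F test, 6 residual degrees of freedom, Benjamini-Hochberg adjustment over all 20157 genes). Genes with an adjusted p below 0.05 were called. Intervals are 95% and fold changes are PQY23_1 over PQY09. For edgeR, the SE was computed as the size of the log2 fold change over the square root of its F statistic. The intervals were built from that SE and are approximate. Alternatives used DESeq2 1.42.0, limma 3.58.1 on log2(FPKM + 1), log2(FPKM + 0.1) or log2(TPM + 1), with TPM computed from the deposited FPKM, other filters and scalings, a replicate block and leaving out each library. The edgeR fit was run on simulated counts with changes planted in genes of at least 5 CPM. These counts were drawn independently with the spread that the fit itself had estimated for each gene. It called 29.9% of the 1.5-fold, 76.1% of the 2-fold and 98.5% of the 4-fold changes. Of its 139 calls, 2.16% were false. Since the simulated counts followed the fit's own model, these rates do not measure false calls or missed changes in the deposited counts.

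Genes were named when they stood among the 15 strongest rises or 15 strongest falls that were called, had no overlap between the compounds' libraries and averaged at least 5 CPM in the higher group, without unnamed and noncoding symbols, with called list members, genes called in opposite directions against DMSO, a panel of 37 genes and regulators of a described list. Some genes and their results are not reported here and are not drawn, though counts over lists include them. Members of the cholesterol and fatty acid lists and others that did not pass are named to complete a list. The genes and lists were chosen with earlier results of these data known. Promoters are from RefSeq (GRCh38.p14).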

Additional observations from a re-analysis of the deposited data

Results flagged for a closer look

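For 7 genes the compounds moved expression to opposite sides of DMSO, each compound called against DMSO and the compounds called against each other by edgeR. Both comparisons with DMSO use the same DMSO libraries. The log2 fold change of PQY23_1 over PQY09 was -1.76 for COL2A1, -1.99 for ACTA1 and -0.85 for TF, which were lower under PQY23_1 and higher under PQY09 than under DMSO. It was 1.12 for LGALS1, 0.97 for TGM2, 1.34 for IGFBP6 and 1.23 for MT2A, which were higher under PQY23_1 and lower under PQY09. IGFBP6 had 8.53, 7.68 and 7.99 CPM under PQY23_1, against 3.06, 3.32 and 3.19 CPM under PQY09 and 5.47, 5.74 and 5.31 CPM under DMSO, and the 3 groups did not overlap. All 7 differences between the compounds were called in each of the 9 fits with a library left out, but the count of genes called on opposite sides of DMSO lay between 2 and 9 over those fits. TGM2 overlaps RPRD1B, and MT2A has close paralogs.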

How the results depend on the processing

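The count of 448 called genes (246 higher, 202 lower) became 1285 (697 and 588) with DESeq2, 943 (149 and 794) with limma on TPM, 295 (131 lower) with only the 6 compound libraries, 188 (101 and 87) at an adjusted p below 0.01 and 111 (63 and 48) with a 2-fold minimum; limma on FPKM called 355 lower with a pseudocount of 1 and 330 with 0.1. With the replicate number as a block it became 267 (146 and 121), 256 of them among the 448; deviations of same-numbered PQY23_1 and PQY09 libraries correlated at -0.129, 0.078 and -0.264, and those with DMSO at 0.049 to 0.130. Not every pair passed 0.1, so the numbers were not taken to pair the samples, although each compound library correlated best with the DMSO library of its own number, a hint from the data and not from the design. Leaving out a library gave 222 to 397 calls, 125 to 223 higher and 97 to 180 lower.

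Of the genes moved by PQY23_1 alone (139), 371 were counted with DESeq2, 71 with the block, 35 at 0.01, 34 with the 2-fold minimum, 251 on TPM and 49 to 97 with a library left out. For PQY09 alone (153) these were 385, 95, 61 and 34, and 75 to 140 with a library left out. The 20 genes moved the same way by both became 11 without a filter, 36 at a mean of 1 CPM, 83 with DESeq2, 7 with the block, 3 at 0.01, 2 with the 2-fold minimum, 35 and 36 on FPKM, 31 on TPM and 5 to 12 with a library left out. The 7 moved in opposite ways became 4, 14, 35, 4, 2 and 0 under the first 6 of these, 11 with counts divided by 4, 12 and 13 on FPKM and 2 to 9 with a library left out. The 129 attributed to neither became 411 with DESeq2, 41 with the 2-fold minimum, 425 on TPM and 63 to 197 with a library left out. The cause of these shifts was not tested.

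The share of genes within 1.5-fold (43.3%) was 27.7% without a filter, 81.3% and 69.8% with limma on FPKM (pseudocounts 1 and 0.1), 90.6% without a filter there and 69.1% on TPM; within 2-fold (61.5%) it was 39.4%, 94.3% and 97.4% without a filter, with FPKM + 1 and with FPKM + 1 unfiltered. Adding a pseudocount narrows intervals of low genes by construction. The mitochondrial share kept its direction in all 8 alternatives. Over the named genes 2875 comparisons with an alternative kept their side of the threshold, 566 lost the call and 19 gained it. In 14 of the 2875, over 5 genes that were not called, the fold change had the other sign; no called gene changed sign. Wide intervals of genes with few counts limit what could be detected. Small changes can also be missed at higher counts. In counts simulated under the fit's own model, edgeR called 29.9% of 1.5-fold changes at 5 CPM or more.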

Other observations

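The following genes and families lie outside the lists above and were chosen after their values were seen. All 4 UGT2B glucuronosyltransferases with at least 1 CPM, which conjugate steroids and drugs, were called higher under PQY23_1 than under PQY09, also under each of the other scalings tried. UGT2B10 had 58.1, 52.9 and 51.4 CPM under PQY23_1, against 24.1, 27.8 and 24.5 CPM under PQY09 and 53.2, 57.3 and 53.04 CPM under DMSO, a log2 fold change of 1.09 between the compounds (adjusted p = 0.00052, edgeR). UGT2B4 and UGT2B7 were higher than under PQY09 by 0.60 and 0.65 on the log2 scale, and close paralogy makes the counts of the family uncertain. For UGT2B4, UGT2B7 and UGT2B10, PQY09 was called lower than DMSO, and PQY23_1 was not called against DMSO. Of 10 S100A calcium-binding proteins, 3 were called higher and all 10 lay above 0, with a median of 0.75. Over all genes tested, 1.22% were called higher. Among the S100A genes, S100A2 kept its call in 3 of the 9 fits with a library left out. S100A6 did not pass (adjusted p = 0.065, edgeR). S100A11 had 106, 86.8 and 87.0 CPM under PQY23_1, against 37.1, 37.4 and 44.8 CPM under PQY09 and 54.5, 48.6 and 46.7 CPM under DMSO (log2 1.23, adjusted p = 0.0011). Of 6 keratins, KRT19 and KRT23 were called higher at 0.67 and 0.55, and the actin-binding thymosin gene TMSB10 rose by 0.68. Against DMSO, KRT19 was called higher under PQY23_1 alone, KRT23 lower under PQY09 alone, and TMSB10 under neither.

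Among genes lower under PQY23_1, ERG28, the human homolog of a yeast scaffold protein of sterol synthesis, had 101, 93.0 and 88.7 CPM under PQY23_1, against 174, 180 and 204 CPM under PQY09 and 81.6, 78.6 and 79.7 CPM under DMSO. Its log2 fold change of -0.98 (adjusted p = 0.00057, edgeR) was called in 9 of 9 fits with a library left out, and it overlaps TTLL5 and FLVCR2. The retinal dehydrogenase gene ALDH1A1 fell by 0.51 and PGRMC1 by 0.53, both with PQY09 alone called against DMSO. The receptor gene ERBB2 had 74.9, 80.7 and 75.7 CPM under PQY23_1, against 104, 104 and 102 CPM under PQY09 and 115, 105 and 108.03 CPM under DMSO.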
